A study of Arabidopsis with 8 samples.

Results

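Leaves of 2 ecotypes of Arabidopsis that had grown on the same salt medium were compared: Sha (Shakdara) and Ler (Landsberg erecta), both on MS plates with 100 mM NaCl. The comparison used 4 of the 8 arrays of the series, chosen by their labels: Sha salt (2 arrays) and Ler salt (2 arrays), with Sha control (2 arrays) and Ler control (2 arrays) on MS plates without salt used where the same difference was needed in the absence of salt. Seedlings were moved to the plates 10 days after sowing, and leaves were collected 4 days later from at least 30 seedlings per plate. The labels call the 2 arrays of a group biological replicates. Each ecotype is an inbred line, and Sha and Ler differ at loci all over the genome, so that no single allele separates them. The methods and the labels differ on day length and growth temperature, and neither says that the ecotypes were grown differently.

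Plants that are exposed to NaCl take up sodium, lose water and make abscisic acid (ABA), which turns on genes for protective proteins. Leaves also hold a separate defense system: immune receptors of the NLR class recognize pathogens inside the cell, the hormone salicylic acid carries that signal to pathogenesis-related (PR) proteins, and jasmonate carries a second one against chewing insects and some fungi. NLR genes are among the most variable genes between natural lines of Arabidopsis. The purpose of the comparison is to show which transcripts set apart 2 ecotypes of different salt tolerance while both are exposed to salt.

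Each array read 1 Cy3-labeled sample with oligonucleotide spots, here called probes. A level is the log2 signal minus the 75th percentile of the same array, so that 0 is the 75th percentile and background lies near -9. A difference is Sha minus Ler on the log2 scale, a value of 1 is 2-fold, and levels of different probes are not comparable. A probe was called when the limma adjusted p was under 0.05 and the difference was above 2-fold. Of 43541 probes kept, 33784 were tested, which gave a signal well above background in both replicates of Sha salt or of Ler salt. On the salt arrays, 76.0% to 79% of spots were well above background in Sha and 75.3% to 76.4% in Ler, and the median SD between replicate arrays was 0.092 in Sha and 0.083 in Ler.

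In the presence of salt, 2223 probes were higher in Sha (6.58% of those tested) and 2604 were lower (7.71%), while the median difference over all tested probes was 0.003. The 2 arrays of Sha did not overlap those of Ler at any called probe, but neither did they at 73.9% of all tested probes. Of the calls, 46.1% were higher in Sha. With no limit on the fold, 7484 of the 33784 tested probes were higher in Sha and 8090 lower at a limma adjusted p under 0.05. An unadjusted limma p under 0.05, used for some lists below, passes at least as many probes. The shares of called loci do not apply to it. With a normexp background correction of the raw spot signal in place of the deposited correction, 2487 probes were called, 25.4% of them higher in Sha, and the median of all tested probes was -0.191. Counted by locus, each taken at its brightest probe, 1211 of 21043 loci were higher in Sha (5.75%) and 1737 were lower (8.25%), and the median was -0.02. Each slide carried 1 ecotype only, and a fit that treats slides as a random effect called 4748 probes. At 4482 of the 4827 called probes the pair of replicate 1 arrays, which were scanned on 1 day, differed above 2-fold in the same direction. The pair of replicate 2 arrays, which were scanned on different days, did so at 4528. Both pairs are part of the data that made the calls, so these counts are no separate check of slide or scan day.

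The leaf label was checked against 4 lists of markers. All 10 leaf markers were tested, none had the Sha arrays below the Ler arrays, and their summed level was 9.30 and 9.02 in Sha salt, against 9.02 and 8.91 in Ler salt. All 14 root markers were also tested and gave signals well above background on all 4 salt arrays. Their summed level was 5.61 and 5.36 in Sha salt, against 5.98 and 5.80 in Ler salt. Of them 2 were lower in Sha, EXPA18 by 2.09 and EXPA7 by 1.41, both expansins of root hairs. The markers therefore do not settle the leaf label. Whether root material was in the samples, and its part in other differences, was not tested. The summed level of 6 flower markers was -1.87 and -1.96 in Sha salt, against -1.46 and -1.42 in Ler salt, with SEP2 at a difference of 1.41, which turned to -0.40 with normexp background correction, and SEP3 at -1.15. Seed markers moved the most. Of 9 tested, 7 were lower in Sha and 0 higher (8 and 1 at an unadjusted limma p under 0.05), with a median of -2.62, and their summed level was -0.47 and -0.23 in Sha salt, against 1.00 and 1.1 in Ler salt. In tissue samples, fewer cells of a type and less RNA per cell cannot be told apart.

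The seed markers code for storage proteins and an oil body protein. SESA3, a 2S albumin, was at -5.64 and -5.43 in Sha salt, against -0.78 and -0.66 in Ler salt. All 3 probes of SESA3 were called lower. CRU2, a 12S cruciferin, was not well above background in Sha salt (-9.47 and -8.90) and was at -3.32 and -3.04 in Ler salt. SESA4 was likewise not well above background in Sha salt, at least 24.5-fold lower. The other called members were SESA2, SESA1, CRA1 and OLEO1, with differences of -2.86, -2.62, -1.5 and -1.3, of which SESA1 missed the threshold with normexp background correction (-1.91, adjusted p = 0.067). The 4 SESA genes are neighboring related copies, and their probes may read more than 1 of them. Without salt the order was the other way around for 5 of the 7. CRA1, for example, was at -3.30 and -2.97 in Sha control, against -8.76 and -9.43, not well above background, in Ler control. The part of these seed transcripts in the other differences with salt was not tested.

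**Figure D1:**
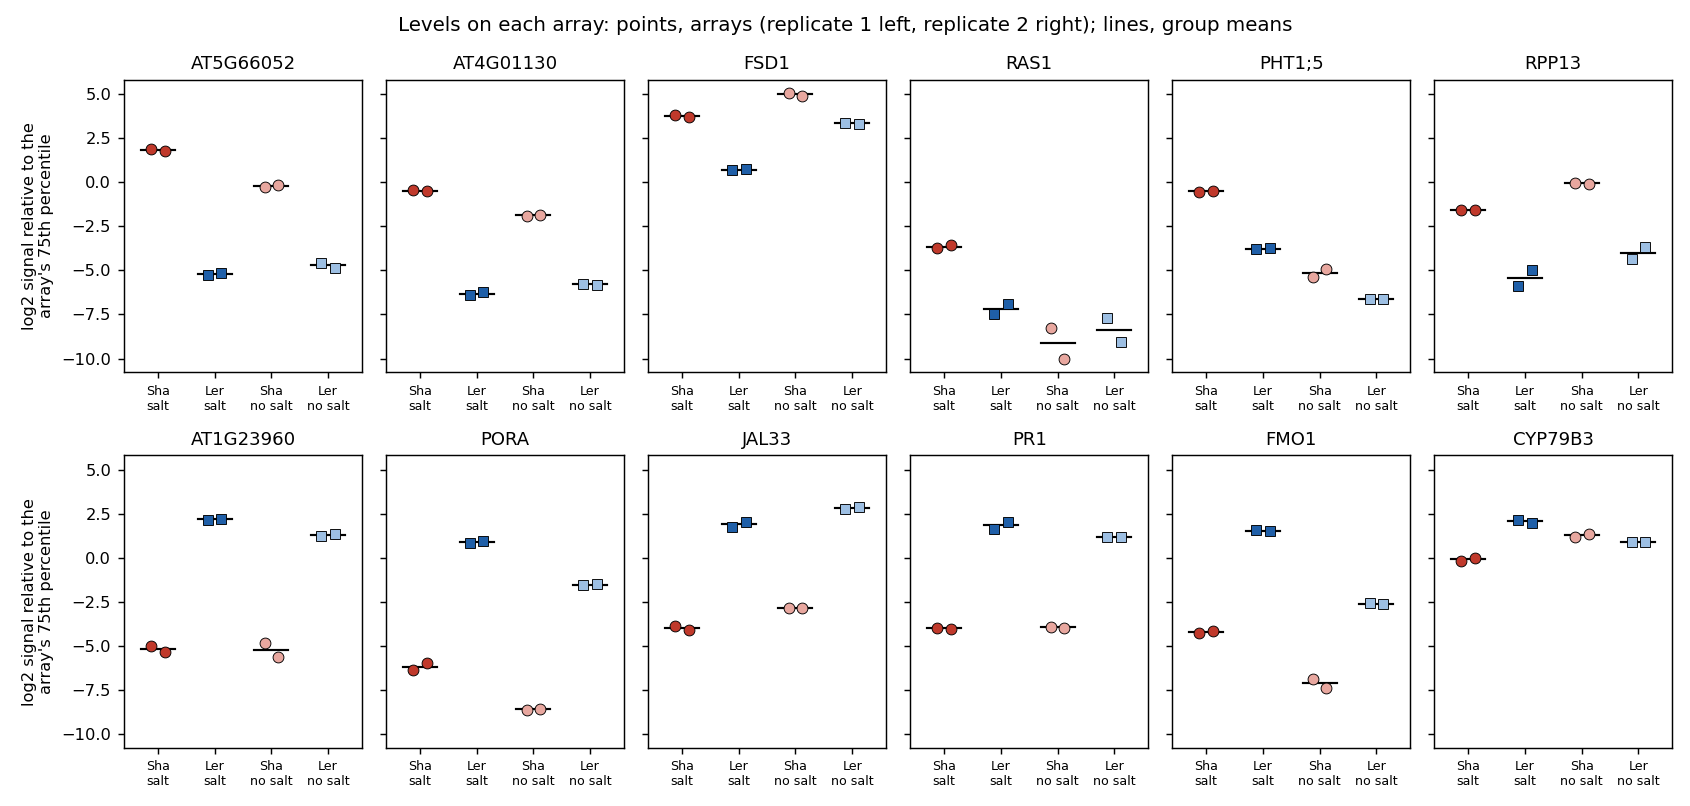
Levels of 12 loci on each of the 8 arrays, as log2 signal relative to the array's 75th percentile (y axis), for Sha salt, Ler salt, Sha control and Ler control (x axis). Points are arrays and lines are means of 2 arrays. At AT5G66052, AT4G01130, FSD1, RAS1, PHT1;5 and RPP13 Sha salt lies above Ler salt, and at the other loci it lies under it. RAS1 was well above background only in Sha salt, while PR1 stayed near -4 in Sha with and without salt.

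Among loci matched by accession and well above background on all 4 salt arrays, the largest fall was at AT1G23960, with levels of -5.01 and -5.32 in Sha salt, against 2.15 and 2.2 in Ler salt (difference -7.34, SE 0.25, limma adjusted p = 9.9e-06). PORA, a protochlorophyllide oxidoreductase that acts when etiolated seedlings turn green, was at -6.38 and -5.98 in Sha salt, against 0.86 and 0.96 in Ler salt (difference -7.09, SE 0.14), and all 3 of its probes were called lower. JAL33, a jacalin-type lectin, had 4 probes, and all 4 were lower, by 5.86 to 7.01. The other loci among the 12 largest falls were AT4G29760 (-6.34), AT1G49700 (-5.88), the lectin receptor kinase AT4G11900 (-5.87), PR1 (-5.83), FMO1 (-5.75), LLP1 (-5.67), AT5G28237 (-5.60), the carboxypeptidase-like gene scpl30 (-5.54) and the ion channel gene CNGC12 (-5.43). Several of these belong to the salicylic acid response described further on. Of the 12, 11 were also called lower in Sha without salt, the exception being scpl30.

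Among the same loci the largest rise was at AT5G66052, with levels of 1.90 and 1.77 in Sha salt, against -5.24 and -5.13 in Ler salt (difference 7.02, SE 0.11, limma adjusted p = 2.0e-06). AT4G01130, a GDSL-type esterase gene, followed with -0.47 and -0.52 in Sha salt, against -6.42 and -6.25 in Ler salt (difference 5.84, SE 0.08), and both of its probes were called higher. The next were AT4G02850 (5.27), the subtilase gene AT4G21650 (5.03), AT4G29200 (4.89), the polyamine transporter gene PUT1 (4.63), the sugar transporter-like gene AT3G05150 (4.33), SQP2 (4.33), which is annotated as a squalene monooxygenase, the receptor-like protein gene RLP33 (4.26), AT4G13800 (4.23), AT1G27461 (4.23) and AT5G24750 (4.12), a glycosyltransferase gene. All 12 but AT1G27461 were also called higher in Sha without salt. With normexp background correction 6 of the 12 missed the threshold: AT4G02850 at 2.65, AT4G29200 at 2.79, AT3G05150 at 2.13, RLP33 at 1.89, SQP2 at 1.72 and AT5G24750 at 1.65.

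Where a probe was not well above background on either array of 1 ecotype, only a bound on the fold can be given. The bound sets the mean of the brighter ecotype against the higher of the dim signal and the lowest signal that counted as well above background on each array. There were 643 probes called higher in Sha with no such signal in Ler, and 441 called lower with none in Sha. AT3G61030 was at 1.81 and 1.86 in Sha salt and at background in Ler salt, which is at least 675-fold higher in Sha. The next by this bound were AT5G45500 (at least 516-fold), AT2G05830 (429-fold), which is annotated as MTI1, AT4G02860 (299-fold), AT3G44430 (277-fold), AT5G50665 (258-fold), emb2731 (245-fold) and AT5G40500 (221-fold). In the other direction AT5G05060 was at background in Sha salt and at 1.23 and 1.32 in Ler salt, at least 587-fold lower in Sha. It was followed by AT1G24388 (at least 538-fold), SEH (454-fold), a soluble epoxide hydrolase gene, AT1G25211 (396-fold), AT3G47250 (326-fold), AT3G62460 (289-fold), AT5G16980 (265-fold) and AT5G44570 (263-fold). All 16 were called in the same direction without salt. Only 3 of them had a second tested probe, and it was called in the same direction each time, higher at AT5G45500 and lower at AT1G25211 and AT3G47250.

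The probes were designed on the reference sequence and not on that of Sha or Ler, and a base change under a probe can lower its signal in 1 ecotype while the transcript is unchanged. Probe and ecotype sequences were not compared here. Loci with several tested probes were therefore read probe by probe. Of 6238 such loci, 931 had at least 1 called probe. In 362 of them (38.9%) all tested probes were called in the same direction, in 545 (58.5%) some were called and others were not, and in 24 (2.6%) probes were called in opposite directions. A further 2407 of the 14805 loci with a single tested probe were called, and these could not be read against a second probe. When a probe differed by more than 4 on the log2 scale, the mean of the other probes of its locus exceeded 1 in the same direction for 117 of 175 probes (66.9%) and lay within 0.5 of 0 for 31 (17.7%). For called differences between 1 and 2, the corresponding numbers were 512 (53.7%) and 191 of 954 probes. Probes that match no locus were called more often, 102 of 347 (29.4%) of those with an accession for a noncoding RNA and 877 of 4291 (20.4%) of the remainder, against 3848 of 29146 (13.2%) of probes with a locus.

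HSC70-1, a cytosolic heat shock cognate chaperone, showed the widest spread. Its brightest probe was at 5.16 and 5.09 in Sha salt, against 5.16 and 5.11 in Ler salt, and 7 of its 8 probes differed by between -0.43 and -0.01. The eighth was at 3.40 and 3.27 in Sha salt and at background in Ler salt, at least 1910-fold higher. ABF2, a transcription factor of ABA signaling, had 1 probe with a difference of 0.52 and another at background in Sha salt but at 1.97 and 2.17 in Ler salt, at least 1020-fold lower. AT5G42850 had 1 probe with a difference of -0.07 and another at background in Ler salt, at least 1120-fold higher in Sha. AT5G11280 had probes with differences of 0.06 and 0.01 and another at background in Sha salt, at least 662-fold lower. At AT4G21460 the brighter probe rose by 1.33, while the other was at least 349-fold lower in Sha. Of the 12 largest falls, AT1G49700 was a case of this kind, with 1 probe at -5.88 and the other at 1.33.

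At other loci all tested probes were called in 1 direction. CA1, the chloroplast carbonic anhydrase, had 8 tested probes and all 8 were higher in Sha with salt, by 1.01 to 1.46. BCB, a blue copper-binding protein, had 5 and all were lower, by 1.03 to 1.28, of which the brightest was at -0.96 without Ler salt replicate 1 and at -0.94 with normexp background correction. Of 9 loci with 4 tested probes that were all called the same way, JAL33 was given above, and the first 4 by locus order were all higher in Sha: the NLR gene AT1G61190, the glycosyltransferase gene AT2G16890, AT2G25450, which codes for a dioxygenase of glucosinolate side chains, and AT1G24380. AT1G24380 was at -3.68 and -3.20 in Sha salt and at background in Ler salt and in both controls, at least 17.5-fold higher in Sha with salt by its brightest probe, although with normexp background correction the difference was 1.15 (adjusted p = 0.42). CA1 at its brightest probe lay close to the 2-fold limit, and without Sha salt replicate 1 or Ler salt replicate 2 it was at 0.97 and 0.99.

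**Figure D2:**
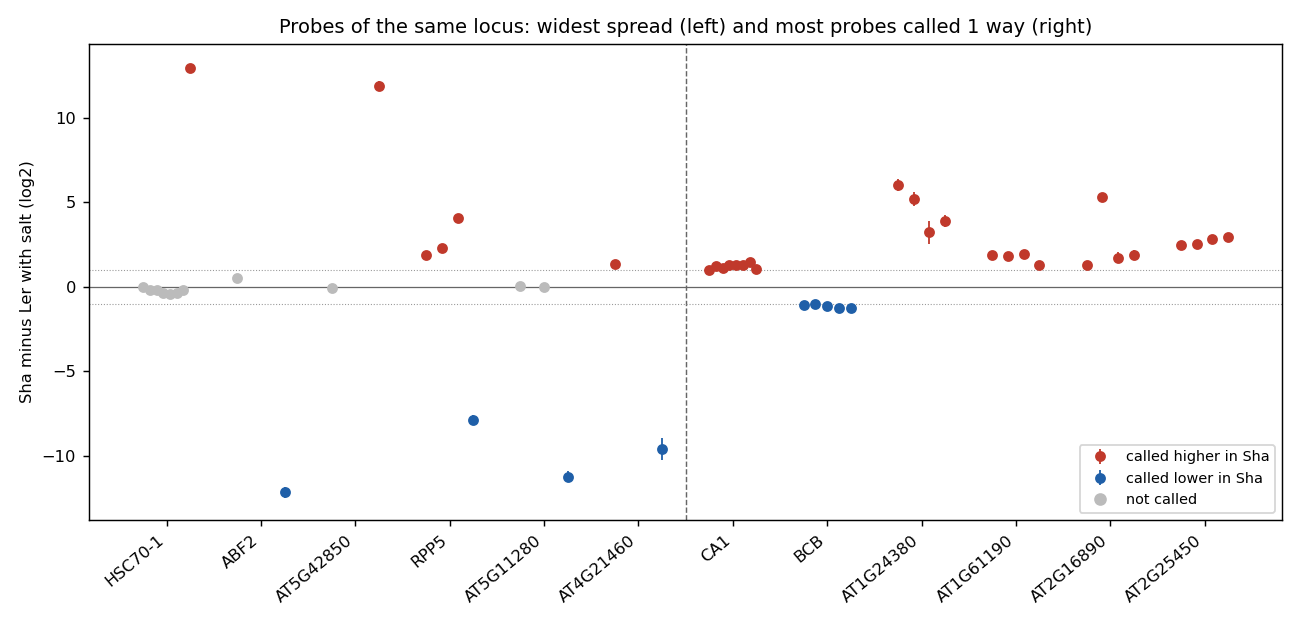
Difference between Sha and Ler with salt (y axis, log2, with limma SE) for every tested probe of 12 loci (x axis), ordered within a locus from the brightest probe to the dimmest. Left of the dashed line are the 6 loci with the widest spread between probes, where single probes with 1 ecotype at background lie far from others near 0. On the right are the 6 loci with the most probes called in 1 direction.

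Of the 18 gene lists, that of the salicylic acid response had the median farthest from 0. Of 28 tested loci, 16 were lower in Sha with salt and 1 was higher, against 8.25% and 5.75% of all loci, with a list median of -1.56 against -0.02. In 24 of 28 both Sha arrays lay below both Ler arrays. Over all tested probes the arrays of the 2 ecotypes did not overlap, in either direction, at 73.9%. PR1, the standard marker of the response, was at -3.96 and -4.02 in Sha salt, against 1.66 and 2.02 in Ler salt, 56.8-fold lower in Sha (difference -5.83, SE 0.12, limma adjusted p = 3.1e-06). PR2 differed by -2.61 and PR5, with both probes lower, by -3.08. Of the 7 called members with several probes, 6 had every probe called in the same direction.

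The same list can be read by role. FMO1, which makes the systemic signal N-hydroxypipecolic acid, was at -4.26 and -4.15 in Sha salt, against 1.58 and 1.51 in Ler salt (difference -5.75, SE 0.16). ALD1, which acts before FMO1 in that pathway, differed by -3.57. WRKY70, a transcription factor of the response, differed by -2.19, and LLP1, a lectin-like protein of systemic immunity, by -5.67. The synthesis genes were less far apart: ICS1, the isochorismate synthase, had a difference of -0.72, EDS5, the chloroplast exporter, had -0.90, and both missed the 2-fold limit. EDS1 and PAD4, which pass the signal from NLR receptors, had differences of 0.53 and -0.55. The member that rose was ACD6, an ankyrin protein that promotes salicylic acid signaling, with -3.81 and -3.63 in Sha salt, against -5.37 and -5.06 in Ler salt (difference 1.5, SE 0.12), 1 of its 2 probes being called. With normexp background correction it was at 0.32 (adjusted p = 0.65) while 16 members were called lower.

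Without salt 14 of the 28 were lower in Sha, with a median of -1. The difference between the 2 ecotypes was wider with salt than without for LLP1 (difference of the differences -1.72), FMO1 (-1.22), ALD1 (-2.89), PR5 (-1.26) and WRKY70 (-1.06). PR1 itself was at -3.90 and -3.96 in Sha control, against 1.17 and 1.17 in Ler control, so that most of its gap was present without salt.

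NLR immune receptors differed in both directions. Of 31 tested loci of 36 listed, 7 were higher in Sha with salt and 6 lower, which is more than the 5.75% and 8.25% of all loci, with a median of -0.27. WRR4, a resistance gene against white rust, was lower, with both probes called and Sha not well above background, at least 50.5-fold (-8.31 and -8.78 in Sha salt, against -2.09 and -2.43 in Ler salt). RPP7, a receptor for downy mildew, fell at all 3 probes, by 3.75 at the brightest, and VICTL was at least 3.77-fold lower. Among the higher members were RPP13, at -1.57 and -1.56 in Sha salt, against -5.90 and -4.98 in Ler salt (difference 3.87, SE 0.34), and RPP4 (2.73). RPP5, which lies in the same cluster of near-identical genes as RPP4, had 3 probes higher in Sha, by 1.91, 2.33 and 4.07, and the fourth at least 61.5-fold lower. RPP1 rose at both of its probes, by 1.22 at the brightest. VICTL missed the threshold with normexp background correction, at -1.67 (adjusted p = 0.12). For 4 members the signal was well above background on both arrays of 1 ecotype only, so that they entered the test through the ecotype in which they were high.

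Jasmonate genes were called in 1 direction only. Of 34 tested loci, 13 were lower in Sha with salt and 0 were higher, against 8.25% and 5.75% of all loci, with a median of -0.74. In 30 both Sha arrays lay below both Ler arrays, while 73.9% of all tested probes did not overlap in either direction. At an unadjusted limma p under 0.05 and with no limit on the fold, 26 were lower and 3 higher. Many of all tested probes also pass that limit, as given above. TPS04, a terpene synthase of herbivore-induced volatiles, was at -4.51 and -3.79 in Sha salt, against 1.02 and 0.95 in Ler salt (difference -5.14, SE 0.22). TAT3, a tyrosine aminotransferase, differed by -3.38 and JMT, which makes methyl jasmonate, by -2.39, each with all probes lower. VSP2, a vegetative storage protein used as a jasmonate marker, turned with salt: it was at 3.13 and 3.16 in Sha salt, against 4.85 and 4.91 in Ler salt, but at 1.89 and 2.02 in Sha control, against -0.94 and -1 in Ler control (difference of the differences -4.66, limma adjusted p = 7.4e-05). VSP1 did so as well at its brightest probe, with a difference of -1.17 with salt, and 3 of its 4 probes were lower and 1 was higher. Seed storage genes turned in the same way between the 2 conditions, as given above.

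**Figure D3:**
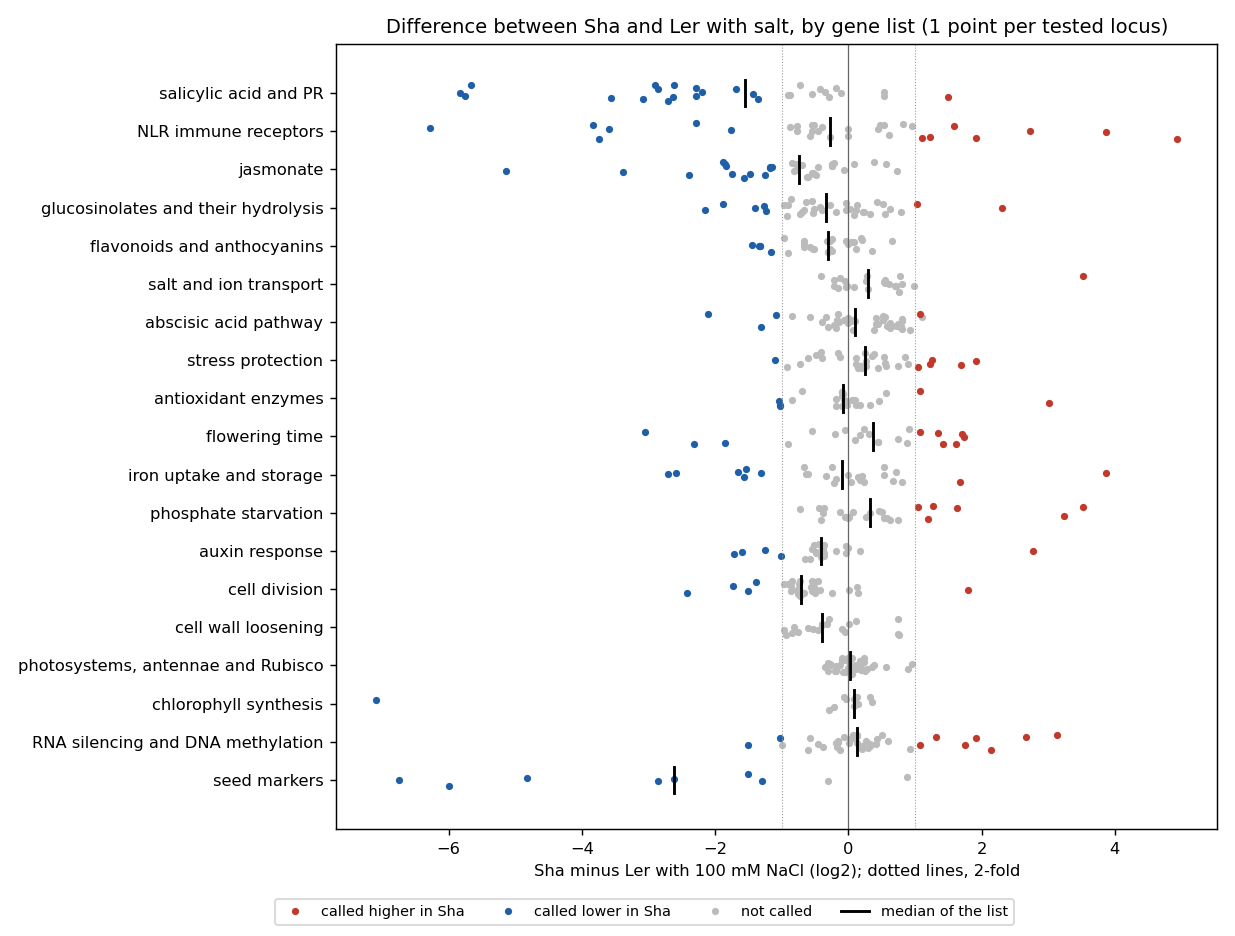
Difference between Sha and Ler with salt (x axis, log2) for each tested locus of 18 gene lists and of the seed markers (y axis). Points are loci by their brightest probe, colored by call, and black lines are list medians. The salicylic acid and jasmonate lists lie mostly left of 0, NLR receptors spread to both sides, and the photosystem list has no called member.

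Glucosinolate genes, which make and break down the mustard oil glucosides, gave 5 lower and 2 higher of 36 tested, near the 8.25% and 5.75% of all loci, with a median of -0.34. CYP79B3 and CYP79B2, the enzymes that turn tryptophan into the precursor of indole glucosinolates, differed by -2.15 and -1.40. CYP79B3 was at -0.18 and 0.01 in Sha salt, against 2.12 and 2.00 in Ler salt, while without salt it was at 1.2 and 1.35 in Sha control, against 0.89 and 0.91 in Ler control (difference of the differences -2.52, limma adjusted p = 0.00047). MBP1, a myrosinase-binding protein, differed by -1.88. NSP3, a nitrile-specifier protein, was higher by 2.3 and the esterase-like ESM1 by 1.03. Both of these were near a limit, NSP3 at 1.04 (adjusted p = 0.26) with normexp background correction and ESM1 at 0.99 with the scan day as a block and at 1.00 without Sha salt replicate 2. Of 29 flavonoid and anthocyanin genes, against the same shares of all loci, 5 were lower and 0 higher (17 and 4 at an unadjusted limma p under 0.05 with no limit on the fold), with a median of -0.31: the regulator MYB113 (-1.45), the glycosyltransferases UGT75C1 (-1.34) and UGT78D1 (-1.16), the synthase LDOX (-1.33) and the acyltransferase 5MAT (-1.32). UGT78D1 was at -0.96 without Ler salt replicate 2 and at -0.98 with the scan day as a block. The enzymes CHS and DFR had differences of -0.27 and 0.04. The paper lists DFR as lower in Sha than in Ler with and without salt, and the reason for the disagreement was not tested. Without a limit on the fold many of all tested probes pass as well, as given above.

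Genes of salt and ion transport, some of which keep sodium out of the cytosol, had 1 called member. Of 23 tested, 1 was higher in Sha and 0 lower, against 5.75% and 8.25% of all loci, with a median of 0.30. At an unadjusted limma p under 0.05 with no limit on the fold 14 were higher and 2 lower. That limit is one that many of all tested probes pass, as given above. SOS1, the plasma membrane sodium exporter, had a difference of -0.16, SOS2, its activating kinase, had -0.13, and NHX1, a vacuolar exchanger, had 0.54. HKT1, the sodium transporter of the vasculature, had no tested probe. The called member was RAS1, a regulator of the responses to salt and ABA known from natural variation between Ler and Sha. The paper cites earlier mapping in which an early stop codon shortens the RAS1 protein of Sha and adds to its salt tolerance. The probe reads transcript only, not working protein. RAS1 was at -3.76 and -3.55 in Sha salt, against -7.45 and -6.92, not well above background, in Ler salt, at least 11.5-fold higher in Sha (difference 3.53, SE 0.65, limma adjusted p = 0.0062). Without salt it was not well above background in either ecotype, and the difference of the differences was 4.3 (adjusted p = 0.023). It rests on 1 dim probe, and with normexp background correction the difference was 0.54 (adjusted p = 0.67).

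Of 41 tested genes of the ABA pathway, 1 was higher and 3 were lower, no more than the 5.75% and 8.25% of all loci, with a median of 0.10. The synthesis gene NCED5 differed by -2.11, BGLU18, a glucosidase that frees ABA from its conjugate, by -1.31 at its brightest probe with all 3 lower, and the receptors PYL2 and PYL6 by -1.09 and 1.08. PYL6 lost its call with normexp background correction (0.01), without Sha salt replicate 1 (0.94) and without Ler salt replicate 1 (0.96), and PYL2 without Sha salt replicate 1 (-0.81). NCED3, the main drought-induced synthesis gene, had a difference of 0.80. Protective genes that ABA and cold turn on, such as dehydrins and other LEA proteins, gave 5 higher and 1 lower of 33 tested, against the same shares of all loci, with a median of 0.25. RD29B was at 2.1 and 2.33 in Sha salt, against 1.01 and 0.91 in Ler salt (difference 1.26, SE 0.16), while without salt the difference was -0.60. XERO1 was higher by 1.69, LTP4 by 1.22, DREB2A by 1.04 (2 of 3 probes) and M17, a LEA protein of seeds, by 1.92, while LTI30 was lower by 1.1. M17 missed the threshold with normexp background correction (0.99, adjusted p = 0.24), LTI30 with the scan day as a block (at -1 after rounding) and DREB2A without Ler salt replicate 1 (0.96).

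Antioxidant enzymes gave 2 higher and 3 lower of 24 tested, near the 5.75% and 8.25% of all loci, with a median of -0.07. FSD1, an iron superoxide dismutase, was at 3.78 and 3.67 in Sha salt, against 0.68 and 0.75 in Ler salt, 8.04-fold higher in Sha (difference 3.01, SE 0.09, limma adjusted p = 6.3e-06), and both probes were called. CSD2, the chloroplast copper/zinc superoxide dismutase, and CCS, its copper chaperone, differed in the other direction, by -1.02 and -1.04. Without salt the differences were 1.63 at FSD1, -2.99 at CSD2 and -1.82 at CCS. APX2, a cytosolic ascorbate peroxidase, was higher by 1.07, or by 0.77 with normexp background correction, which missed the 2-fold limit, and APX5 was lower by 1.03. The 3 falls lay close to the 2-fold limit, and with median scaling none of them passed it (CCS -0.99, APX5 -0.97, CSD2 -0.97). Single arrays also decided them, CCS being at -0.97, APX5 at -0.87 and CSD2 at -0.91 without Sha salt replicate 2, CSD2 at -0.98 without Ler salt replicate 1 and APX5 at -0.97 without Ler salt replicate 2.

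Flowering-time genes gave 6 higher and 3 lower of 22 tested, against 5.75% and 8.25% of all loci, with a median of 0.38, or -0.11 with normexp background correction. TSF, a mobile flowering signal related to FT, was at background in Sha salt and at -6.89 and -7.00 in Ler salt, at least 1.97-fold lower. SPL4, a target of that signal, differed by -2.32 (2 of 3 probes), and MAF2, a repressor, was lower at all 4 probes, by 1.85 at the brightest. MAF1, a related repressor, was higher by 1.74 with 3 of 4 probes called. CO, which links day length to FT, was higher by 1.70 at its brightest probe with both probes called, and AGL19 was higher by 1.61. FRI (1.42), GI (1.35) and AGL24 (1.07) were also higher. FT itself had a difference of -0.54 and FLC 0.88. With normexp background correction CO (0.66), FRI (0.78), AGL24 (0.75) and TSF (-1.46) missed the threshold.

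Iron genes gave 2 higher and 6 lower of 26 tested, against 5.75% and 8.25% of all loci, with a median of -0.10. BHLH100, a transcription factor of the iron-deficiency response, was at -4.84 and -4.89 in Sha salt, against -2.28 and -2.29 in Ler salt, whereas without salt it was at -1.25 and -1.14 in Sha control, against -2.46 and -2.42 in Ler control (difference of the differences -3.82, limma adjusted p = 8.1e-05). BHLH38 differed by -1.56, the transporter IRT2 by -2.71 and NAS3, a nicotianamine synthase, by -1.66. FRO4, a ferric reductase, was higher by 3.87, and FER2, a ferritin, by 1.68. FRO4 was at 0.86 (adjusted p = 0.49) with normexp background correction.

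Genes of phosphate starvation were called in 1 direction only. Of 25 tested, 6 were higher in Sha with salt and 0 lower, against 5.75% and 8.25% of all loci, with a median of 0.32. At an unadjusted limma p under 0.05 with no limit on the fold 13 were higher and 4 lower, a limit that many of all tested probes pass. PHT1;5, a phosphate transporter that moves phosphate between organs, was at -0.58 and -0.48 in Sha salt, against -3.81 and -3.73 in Ler salt (difference 3.24, SE 0.14), and PHT1;1, an uptake transporter, was higher by 1.63. The acid phosphatase genes PAP24 and PAP14 were higher by 3.52 and 1.2, with both probes of each called, and PS2 by 1.05 (2 of 3 probes), or by 0.93 with the scan day as a block. PHO2, which removes phosphate transporters, was higher by 1.27 at its brightest probe, with both called. The usual markers of low phosphate, SPX1, IPS1 and SPX3, had differences of 0.75, 0.51 and -0.41. PAP24 and PAP14 missed the threshold with normexp background correction, at 1.55 and 0.97.

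Cell division and auxin genes had medians under 0. In 26 of 30 cell division genes both Sha arrays lay below both Ler arrays, while 73.9% of all tested probes did not overlap in either direction. By call, 4 of the 30 were lower and 1 higher, against 8.25% and 5.75% of all loci, with a median of -0.72. The 4 were CDKD1;1 (-2.42), a kinase that activates other cell cycle kinases, the mitotic cyclins CYCB1;4 (-1.73) and CYCB2;3 (-1.38), and MCM6 (-1.5), a subunit of the replication helicase. The mitotic kinase CDKB1;2 was higher by 1.79 with both probes called, but at 0.87 (adjusted p = 0.18) with normexp background correction. Without salt the median of the list was -0.04. Of 23 auxin genes, 4 were lower and 1 higher, against the same shares, with a median of -0.41. Among them were SAUR20 (-1.71), the repressor IAA29 (-1.60) and the auxin exporter PIN7 (-1.25) on the lower side, and SAUR19 (2.77) on the higher. SAUR19 and SAUR20 are neighboring near-identical copies, which their probes may not tell apart. SAUR19 and IAA29 were not called after normexp background correction, at 0.91 (adjusted p = 0.37) and -1.36 (adjusted p = 0.17). Of 19 expansins and wall-loosening enzymes, 0 were called in either direction by limma, and the median was -0.39. At an unadjusted limma p under 0.05 with no limit on the fold 3 were higher and 12 lower, a limit that many of all tested probes pass. With normexp background correction 2 were called lower.

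The photosynthetic apparatus differed by less than 2-fold. None of 45 tested genes of the photosystems, antennae and Rubisco was called by limma, and their differences ran between -0.35 and 0.95, with a median of 0.03, and 5 were higher and 3 lower at an unadjusted p under 0.05 with no limit on the fold. In chlorophyll synthesis PORA was the only called gene of 11, while PORB and PORC, the forms that green leaves use, had differences of -0.04 and -0.22. Among genes of RNA silencing and DNA methylation, 7 of 41 were higher in Sha and 2 lower, against 5.75% and 8.25% of all loci, with a median of 0.13. Normexp background correction left 2 higher and 2 lower, with a median of -0.11. CMT3, a DNA methyltransferase of CHG sites, was at 0.06 and 0.14 in Sha salt, against -1.61 and -1.68 in Ler salt (difference 1.75). DML3, a DNA demethylase, was higher by 1.91, or by 1.04 (adjusted p = 0.12) with normexp background correction, and DCL1, the dicer of microRNAs, by 1.07. Of the neighboring RNA polymerase genes, RDR4 was not well above background in Ler salt and at least 3.35-fold higher in Sha, and RDR3 was higher by 2.66. DRM1, also not well above background in Ler salt, was at least 1.98-fold higher, and AGO6 was higher by 1.31. RDR4, DRM1 and AGO6 are dim, and with normexp background correction they turned to -0.29, -0.56 and -0.25, and RDR3 was at 0.02. MET1, the methyltransferase of CG sites, differed by -1.03, and AGO5 by -1.51 (adjusted p = 0.038), which was at -0.74 without Ler salt replicate 2 and reached adjusted p-values of 0.06 to 0.14 without any other array but Ler salt replicate 1. MET1 was at -0.92 without Sha salt replicate 1 and at -0.96 without Ler salt replicate 1.

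Loci that the study's text names were also read out. AT1G26250, an extensin-like gene, was at -2.83 and -2.79 in Sha salt, against -5.23 and -5.32 in Ler salt (difference 2.46, SE 0.10), and both of its probes were called. AT1G77530, an O-methyltransferase gene, was higher by 1.33. With normexp background correction they were at 1.08 (adjusted p = 0.25) and 0.27 (adjusted p = 0.71). A further 2 loci were assigned to probes only by the study's own supplementary annotation. AT2G13665 was at 1.22 and 1.01 in Sha salt and at background in Ler salt, at least 411-fold higher. The paper's text names this locus for a decrease, the other direction, among its comparisons of Sha with Ler and Col. It does not say which of them gave that value. AT3G02515 was at -6.26 and -6.16 in Sha salt, against 2.01 and 2.1 in Ler salt (difference -8.26, SE 0.09).

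Called loci that neighbor each other on a chromosome, with no tested locus called otherwise between them, formed 69 runs of at least 3 loci in the order of the TAIR10.1 annotation. Of these runs, 23 were higher and 46 lower in Sha, and together they held 228 loci, or 7.7% of the called loci. Of all tested loci, 5.75% were called higher and 8.25% lower, and how many runs would arise by chance was not tested. Most runs, 53 of the 69, held only 3 loci. The longest held 7 loci of chromosome 5, AT5G37970 to AT5G38030, all higher in Sha with salt by 1.67 to 3.5. On chromosome 4, AT4G01910 was higher by 4.42, and AT4G01915, AT4G01920 and AT4G01930, not well above background in Ler salt, were at least 60.6-fold, 22-fold and 11-fold higher. On chromosome 2, LURP1, PRB1, PR1 and XTH10 were lower by 2.86 to 5.83, of which LURP1, PRB1 and PR1 belong to pathogen responses. A further run on chromosome 2 held AT2G04050, AT2G04066 and AT2G04080, lower by 3.20, 1.80 and 2.47, and AT2G04070, at background in Sha salt and at least 67.4-fold lower, in a cluster of related efflux transporter genes. Runs of related genes can share probe signal.

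The difference with salt was set against that without salt, in which the arrays of Sha control and Ler control were compared in the same fit. Of the 2223 probes higher in Sha with salt, 1131 were also higher without salt, 976 were not called and 116 were lower. Of the 2604 lower probes, 1428 were also lower without salt, 1146 were not called and 30 were higher. The difference of the 2 differences was called at 8.91% of all tested probes. Among probes higher in Sha with salt it was called positive at 692, called negative at 65 and not called at 1466. A positive value there means a gap that was wider with salt or had turned in direction, and a negative value a narrower gap. Among the lower probes it was called negative at 738, where the gap was wider or had turned. It was called positive at 125 of them and not called at 1741.

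A gap that was wider with salt or had turned could come from either ecotype. Of the 692 probes, salt raised 486 and lowered 49 in Sha, and it raised 195 and lowered 157 in Ler. Of the 738, salt lowered 387 and raised 112 in Sha, and it lowered 167 and raised 314 in Ler. A probe was countable in both ecotypes. AT3G05150 was a case of a change in Ler, at -2.41 and -2.13 in Sha salt and -6.60 and -6.60 in Ler salt, against -1.69 and -1.5 in Sha control and -2.95 and -2.77 in Ler control. CNGC12 was a case of a change in Sha, at -6.04 and -5.94 in Sha salt and -0.42 and -0.70 in Ler salt, against -2.24 and -2.32 in Sha control and -0.17 and -0.28 in Ler control. scpl30, by contrast, was well above background on both arrays only with salt, at -6.45 and -6.15 in Sha salt and at -0.87 and -0.64 in Ler salt.

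**Figure D4:**
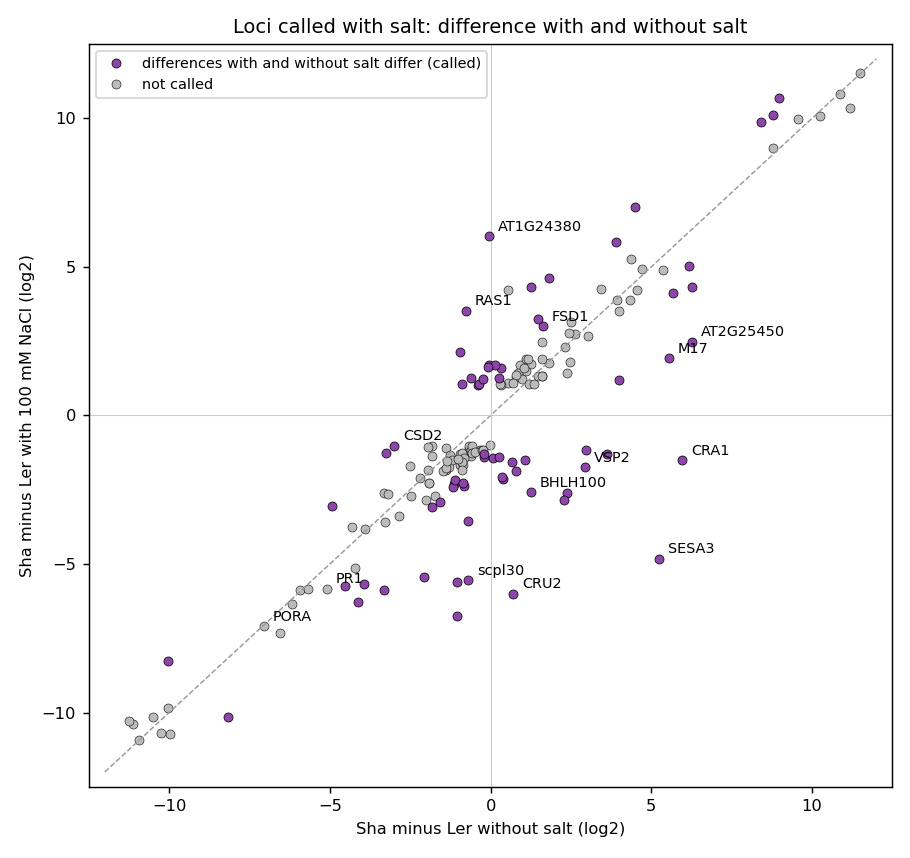
Difference between Sha and Ler with 100 mM NaCl (y axis, log2) against the same difference without salt (x axis, log2) for 172 called loci of the gene lists, markers and named loci. The dashed line marks equal differences, and purple points are the 67 loci at which the 2 differences were called different. RAS1 and AT1G24380 were called with salt and not without, PORA lies on the line, and SESA3 and VSP2 lie on opposite sides of 0 in the 2 conditions.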

How the data were processed

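The authors hybridized Cy3-labeled RNA of leaves to Agilent arrays and deposited the Feature Extraction 10.7.1.1 signals as intensity, corrected for background within each array and not scaled between arrays. A deposited series table repeats these values. Here 62 probes with an outlier spot were left out, repeated spots were averaged, and log2 signals were scaled to the 75th percentile of each array. Probes with signals well above background on both arrays of Sha salt or Ler salt entered a linear model in limma 3.58.1 (R 4.3.3) over all 8 arrays as 4 groups (4 residual and 2.05 prior degrees of freedom). A call needed a difference above 2-fold and a limma p under 0.05 after Benjamini-Hochberg adjustment across every probe tested. Tested on simulated data for this comparison, the fit recovered 84.0% of log2 changes of 1.5 and 92.0% of changes of 2. Of the tested probes, 29146 matched 21043 loci through their accession (RefSeq, TAIR10.1, names and order only). The brightest probe over the 4 salt arrays stood for a locus.

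The members, lists and tests were chosen with earlier results of these data known. Named loci were the 12 largest rises and falls, the 8 largest bounded folds each way, up to 3 called members of a list each way, loci of the study's text, and loci with the most concordant or most discordant probes (ties by locus order). Others were named for their role after values were seen. Alternatives covered scaling, background, filters, moderation, thresholds, blocks for replicate number, slide and scan day, and each array left out. AT5G27345 was not analysed here, and some called list members are not reported here.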

Additional observations from a re-analysis of the deposited data

Results flagged for a closer look

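With 2 arrays a group, outlying arrays were not tested for. The results below were flagged because the difference between Sha and Ler with salt and that without salt themselves differed by limma's test, at an adjusted p under 0.05 and above 2-fold. Each value is the difference with salt minus the difference without salt on the log2 scale. Where a group was not well above background on either array, the fitted value depends on the background signal. That held for Ler control at the seed genes, M17, MYB113, AGO5, scpl30 and AT5G24750, for both controls at AT5G28237, for Ler salt and both controls at RAS1, DRM1 and AT1G24380, for Ler with and without salt at AT4G02860, AT5G50665 and AT2G13665, for Sha with and without salt at AT5G16980 and TSF, and for Sha salt at WRR4, CRU2 and SESA4. At AT4G02860 and AT5G50665 the change with salt in Sha was itself not called (0.76 and 0.91).

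Among loci higher in Sha with salt, the difference was shifted further up with salt at AT5G66052 (2.54), AT4G01130 (1.93), PUT1 (2.83), AT3G05150 (3.07), AT4G02860 (1.33), AT5G50665 (1.48), RAS1 (4.3), RD29B (1.86), LTP4 (1.45), DREB2A (1.4), FSD1 (1.38), APX2 (1.97), CO (1.76), AGL19 (1.3), FER2 (1.52), PHT1;5 (1.77), PHT1;1 (1.72), PHO2 (1.01), DRM1 (3.08), CA1 (1.39), AT1G24380 (6.09) and AT2G13665 (1.70). It was smaller at AT4G21650 (-1.13), SQP2 (-1.93), AT5G24750 (-1.54), M17 (-3.63), PAP14 (-2.78) and AT2G25450 (-3.78).

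Among loci lower in Sha with salt, the difference was shifted further down with salt at AT4G11900 (-2.55), FMO1 (-1.22), LLP1 (-1.72), PR5 (-1.26), ALD1 (-2.89), WRKY70 (-1.06), AT5G28237 (-4.54), scpl30 (-4.84), CNGC12 (-3.37), AT5G16980 (-1.97), SPL4 (-1.18), CYP79B3 (-2.52), CYP79B2 (-1.17), MYB113 (-1.52), WRR4 (-2.14), JMT (-1.56), VSP1 (-4.15), VSP2 (-4.66), BHLH100 (-3.82), BHLH38 (-2.22), CDKD1;1 (-1.26), AGO5 (-2.58), EXPA7 (-1.67) and EXPA18 (-2.43). The seed genes moved in the same direction, SESA3 by -10.05, CRA1 by -7.46, CRU2 by -6.72, SESA4 by -5.70, SESA2 by -5.14, SESA1 by -5.00 and OLEO1 by -4.93. It was smaller with salt at CSD2 (1.97), TSF (1.89) and AT3G02515 (1.76).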

How the results depend on the processing

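Normexp background correction gave 2487 called probes in place of 4827, 25.4% of them higher in Sha in place of 46.1%, 1679 called loci in place of 2948, 189 loci with all of several probes called the same way in place of 362, and 318 called probes whose difference with salt also differed from that without, in place of 1620. Under it RDR4 (-0.29), DRM1 (-0.56), AGO6 (-0.25) and SEP2 (-0.40) turned in direction, and the cause was not tested. With no limit on the fold, 15574 probes passed. Under the other alternatives these counts stayed within 1.5 times of their values. With each array left out in turn, where the remaining array of that group is assumed to vary like the other groups, between 4604 and 4844 probes, 2848 and 2957 loci and 337 and 367 loci with concordant probes were called, between 44.0% and 47.1% of called probes were higher in Sha, and between 1364 and 1687 called probes differed between the conditions. The labels tie no replicate number to a shared batch. By scan date, however, all replicate 1 arrays share 1 day and all replicate 2 arrays were scanned on other days. Deviations of same-numbered arrays from their group means correlated at 0.06 for Sha salt 1 and Ler salt 1 and at 0.11 to 0.51 for the other 5 pairs of groups, so that not every pair passed 0.1. With a replicate block 4872 probes were called, 1722 of which differed between the conditions, and it changed no call of a named locus. Of 147 named and called loci, 99 were called in the same direction under every alternative in which they were tested, and 132 were when normexp is left aside. The 2 arrays per group and the signal over background of dim probes limit the precision.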
